A study of Rattus norvegicus with 2 samples.

Results

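The 9 genes described here, Mbp, Mobp, Mog, Mag, Cnp, Cldn11, Apod, Cd9 and Pdgfra, are genes of myelin and of the oligodendrocyte lineage. They were chosen by name, and every probe set whose only gene symbol on the platform was one of them was taken. Probe sets were found for 8 of the 9 genes, 18 in all, out of 4736 genes with such a probe set. Cldn11, which encodes a tight junction protein of myelin, had none and is not analysed here. The samples were RNA from hippocampal synaptosomes, a fraction of pinched-off nerve endings, and RNA from the total hippocampus. Both came from Sprague Dawley rats on postnatal day 70, and each was hybridised to 1 array. The labels name no treatment, genotype or sex and do not give the number of animals, so each value is 1 measurement and no test between the groups could be made.

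Myelin is the multilayered membrane that oligodendrocytes wrap around axons in the central nervous system. Most of its membrane proteins are made in the oligodendrocyte cell body, but the mRNAs of Mbp and Mobp are carried in granules along microtubules into the cell's processes and are translated near the forming sheath. Mature oligodendrocytes make Mbp, Mobp, Mog, Mag and Cnp, whereas Pdgfra marks their precursors. In tissue RNA, a lower signal from fewer cells of a type and one from less RNA per cell cannot be told apart.

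Signals are the authors' intensities in arbitrary units, already on one scale: the mean after trimming the lowest and highest 2% was 2504 in synaptosomes and 2505 in total hippocampus. Of the 8740 probe sets that are not controls, 25.2% in synaptosomes and 31.4% in total hippocampus read 0 or less. Of the negative readings, 95% were smaller in size than 2912.6 in synaptosomes and 5280.25 in total hippocampus, and signals under these noise sizes are called near the noise. Signals under a floor of 846, the median of all readings, were set to the floor. The log2 ratio is synaptosomes minus total hippocampus, centred on its median of -0.17. With this centring a fold is 1.13 times smaller than the plain signal quotient for lower genes and 1.13 times larger for higher genes. "At least" marks a fold with 1 signal at the floor. A gene is represented by its probe set of highest mean level among those past a filter at a mean signal of 1078, which 2735 genes passed. The error these data allow is the standard deviation (SD) of the ratio between probe sets of one gene, 0.90 over 658 genes. It is not much smaller than the SD over all probe sets with 1 gene symbol past the filter, 1.06. A 2-fold difference, a log2 ratio of 1, is therefore only slightly larger than this error. This error leaves out animals, preparations and amplifications.

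Of the 8 genes, 5 were at least 2-fold lower in synaptosomes: Mbp, Mobp, Mog, Apod and Cd9. Mag lay near 0, and Cnp and Pdgfra were higher by 2-fold or more. Over all 2735 genes, 14.3% were lower by 2-fold or more and 19.1% were higher by as much. The median log2 ratio of the 8 genes was -1.18, against 0.00 over all genes past the filter. Counted by probe set, 14 of 18 passed the filter, and of these 9 were lower by 2-fold or more, 2 were higher by as much and 3 fell short of 2-fold. Among the 3569 probe sets past the filter with 1 gene symbol, 14.5% were lower by 2-fold or more and 19.4% higher by as much. Of the 14, 1 Mog and 1 Mobp probe set passed through their total hippocampus signal alone and 1 Pdgfra probe set through its synaptosome signal alone. The SD of the ratio over the 8 genes was 1.72, and 1.27 over the 7 without Pdgfra.

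**Figure D1:**
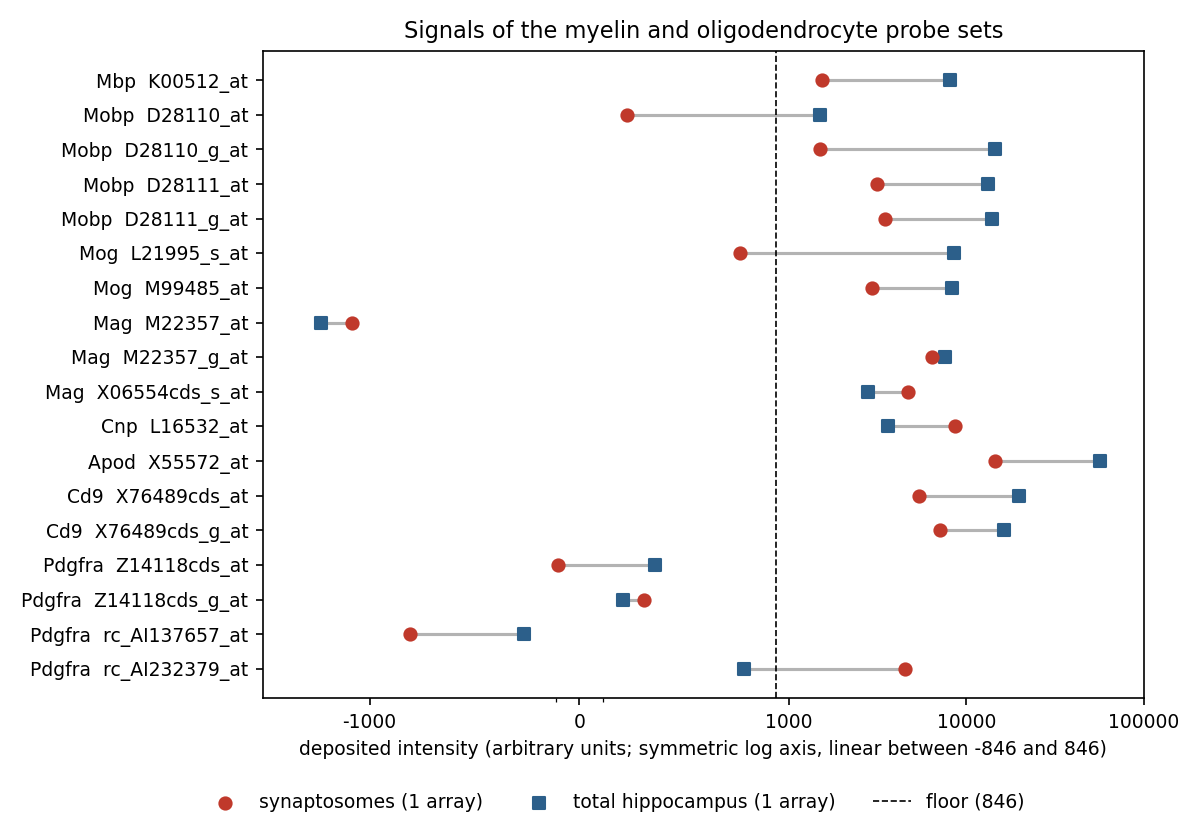
Deposited intensity (horizontal axis, arbitrary units, symmetric log scale) of each of the 18 probe sets in synaptosomes (circles) and total hippocampus (squares), 1 array each, with the floor of 846 dashed. The synaptosome point lies left of the hippocampus point in every probe set of Mbp, Mobp, Mog, Apod and Cd9 and right of it for Cnp.

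Mbp encodes myelin basic protein, which lies on the cytoplasmic face of the myelin membrane and holds its layers together. Its only probe set (K00512_at) read 1535 in synaptosomes and 8123 in total hippocampus. The log2 ratio was -2.23, or 4.70-fold lower in synaptosomes. The difference exceeded the spread between probe sets of a gene, and 22 of the 2735 genes had a lower ratio. The synaptosome reading lay near the noise. With that reading raised to 2912.6, Mbp was still at least 2.48-fold lower. Mbp also has longer transcripts from a start farther upstream, and the probe set was not assigned to either kind here.

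Mobp encodes a small basic myelin protein that also lies on the cytoplasmic face. It had 4 probe sets on 2 source sequences. For the first, D28110_at read 205 in synaptosomes and 1491 in total hippocampus, and D28110_g_at read 1501 in synaptosomes and 14456 in total hippocampus. For the other, D28111_at read 3136 in synaptosomes and 13255 in total hippocampus, and D28111_g_at read 3481 in synaptosomes and 13910 in total hippocampus. All 4 were lower in synaptosomes. The pair on the second source sequence, with both signals above the noise, were 3.76-fold and 3.55-fold lower, while D28110_g_at was 8.56-fold lower from a synaptosome reading near the noise. D28110_at was under the floor in synaptosomes and near the noise in total hippocampus, at least 1.57-fold lower. The log2 ratios of the 4 averaged -1.87 with an SD of 1.0, so the fold is uncertain. With its synaptosome signal at the floor, D28110_at could pass the filter only as lower. The shared direction therefore rests on the other probe sets, which come from 2 source sequences. Both genes whose mRNAs are known to travel into processes were thus lower in the synaptosome fraction, with 4 of their 5 probe sets at least 2-fold lower. Their mean log2 ratio was -2.03, against -0.04 ± 1.72 (SD) over the other 6 genes, a difference of -1.99. Without Pdgfra, whose reading in total hippocampus was under the floor, the other 5 had a mean of -0.57 ± 1.28 (SD) and the difference was -1.47. Those 5 ranged from -1.81 to 1.42, so this is a description of 2 genes against a divided group. The difference also leans on the near-noise synaptosome reading of Mbp. With each array's floor at its noise size, Mbp had -1.31, level with Mog at -1.32. Mobp had -1.83 there, level with Apod at -1.81.

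The promoters of Mobp and Apod, from genes lower in synaptosomes, and of Cnp, from a gene that was higher, are shown. Among the lower genes with a promoter, Mobp and Apod held the most copies of the core marked below, so they do not stand for the others. They are the RefSeq sequences of assembly GRCr8, 300 bases each, from 250 before to 50 after the annotated start, on the plus strand. Capitals mark ACAAAG or its reverse complement CTTTGT, a core that SOX factors bind. SOX10 is the SOX factor that drives myelin genes in oligodendrocytes. Promoters were found for 8 of the 9 genes, Cldn11 included and Mog not.
Mobp, chr8:128746982-128747281: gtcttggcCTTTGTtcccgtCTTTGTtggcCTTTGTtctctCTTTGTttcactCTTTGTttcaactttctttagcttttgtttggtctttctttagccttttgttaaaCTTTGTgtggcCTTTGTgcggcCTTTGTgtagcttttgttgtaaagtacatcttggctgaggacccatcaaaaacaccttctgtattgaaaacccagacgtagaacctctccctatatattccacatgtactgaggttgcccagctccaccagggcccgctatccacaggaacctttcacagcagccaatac
Apod, chr11:82935970-82936269: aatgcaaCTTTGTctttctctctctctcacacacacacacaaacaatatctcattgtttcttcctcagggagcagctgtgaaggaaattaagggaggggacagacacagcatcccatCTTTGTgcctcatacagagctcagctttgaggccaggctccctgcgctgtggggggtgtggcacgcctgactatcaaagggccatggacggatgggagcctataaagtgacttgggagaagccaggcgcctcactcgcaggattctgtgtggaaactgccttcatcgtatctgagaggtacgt
Cnp, chr10:86011254-86011553: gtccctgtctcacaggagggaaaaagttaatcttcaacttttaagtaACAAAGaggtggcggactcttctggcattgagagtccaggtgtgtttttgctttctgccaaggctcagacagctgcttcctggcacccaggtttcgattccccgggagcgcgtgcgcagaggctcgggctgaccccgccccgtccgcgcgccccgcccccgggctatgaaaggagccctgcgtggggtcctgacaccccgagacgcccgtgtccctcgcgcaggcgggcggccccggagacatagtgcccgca
Mobp held 8 copies, all as CTTTGT and in closely spaced runs, between 242 and 120 bases before the start. Of 33469 promoters of this length, 3 held 8 or more. Apod held 2 copies and Cnp 1. Of all promoters, 2.5% held at least 2 and 18.8% held at least 1. The promoters of Cd9, Cldn11 and Pdgfra held none, and that of Mag held 1. Mbp has 2 annotated starts, of which the upstream one had none and the other 1. These matches describe letters in the reference genome. The arrays compared RNA from a fraction and from its tissue of origin and did not measure transcription from these promoters.

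Mog and Mag encode immunoglobulin-type membrane proteins, Mog on the outermost surface of the sheath and Mag on the inner surface that faces the axon. Mog probe set M99485_at read 2936 in synaptosomes and 8232 in total hippocampus, 2.49-fold lower in synaptosomes. The other, L21995_s_at, read 691 in synaptosomes, under the floor, and 8470 in total hippocampus, at least 8.90-fold lower. That bound rests on the floor of 846, which lies under the synaptosome noise size of 2912.6. The 2 total hippocampus readings were close, and the probe sets differed in the synaptosome reading, with an SD of 1.30 between their log2 ratios. Of those synaptosome readings, 691 lay near the noise and 2936 just above it, so this difference is not resolved from noise. Mag behaved otherwise. M22357_g_at read 6380 in synaptosomes and 7564 in total hippocampus, a log2 ratio of -0.08. X06554cds_s_at read 4699 in synaptosomes and 2766, near the noise, in total hippocampus, a log2 ratio of 0.93. Their difference, with an SD of 0.71, was within the spread between probe sets of one gene. M22357_at read -1264 in synaptosomes and -1877 in total hippocampus, so it gave no ratio although it shares its source sequence with M22357_g_at.

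Cnp encodes the enzyme CNPase, which binds to membranes and microtubules in the cytoplasm-filled parts of the sheath. Its only probe set (L16532_at) read 8614 in synaptosomes and 3627 in total hippocampus, 2.67-fold higher in synaptosomes, a log2 ratio of 1.42. The total hippocampus reading lay near the noise. With that reading raised to 5280.25, Cnp was at least 1.84-fold higher, short of 2-fold. Cnp thus lay opposite to Mbp, Mobp and Mog, on 1 probe set.

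Cd9 and Apod have roles outside myelin as well. Cd9 encodes a tetraspanin found in myelin and in many other cell types. Its probe sets share one source sequence. X76489cds_at read 5417 in synaptosomes and 19889 in total hippocampus, 3.26-fold lower in synaptosomes. X76489cds_g_at read 7045 in synaptosomes and 16318 in total hippocampus, 2.06-fold lower. All 4 readings were above the noise, and the 2 log2 ratios, -1.71 and -1.04, differed by less than the spread between probe sets. The gene's value, -1.04, was itself little larger than that spread of 0.90. Apod encodes apolipoprotein D, a secreted lipid carrier made by oligodendrocytes and also by astrocytes and perivascular cells. Its only probe set (X55572_at) read 14393 in synaptosomes and 56874 in total hippocampus, 3.51-fold lower in synaptosomes, a log2 ratio of -1.81. Both readings were above the noise, and after loess correction, which removes any trend of the ratio with level, the log2 ratio was -1.63.

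Pdgfra encodes the receptor for platelet-derived growth factor through which oligodendrocyte precursors divide, and it is also made by fibroblasts of vessels and meninges. Of its 4 probe sets, 3 were under the floor on both arrays. Z14118cds_at read -93 in synaptosomes and 325 in total hippocampus. Z14118cds_g_at read 279 in synaptosomes and 189 in total hippocampus. The third, rc_AI137657_at, read -727 in synaptosomes and -239 in total hippocampus. These 3 readings gave neither a detectable signal nor a ratio. The remaining one, rc_AI232379_at, read 4472 in synaptosomes and 705 in total hippocampus, at least 5.95-fold higher in synaptosomes. The total hippocampus floor of 846 lies far under the noise size of 5280.25 there, which is larger than the synaptosome reading itself. The Pdgfra fold therefore rests on 1 of 4 probe sets and on a reading within the noise.

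**Figure D2:**
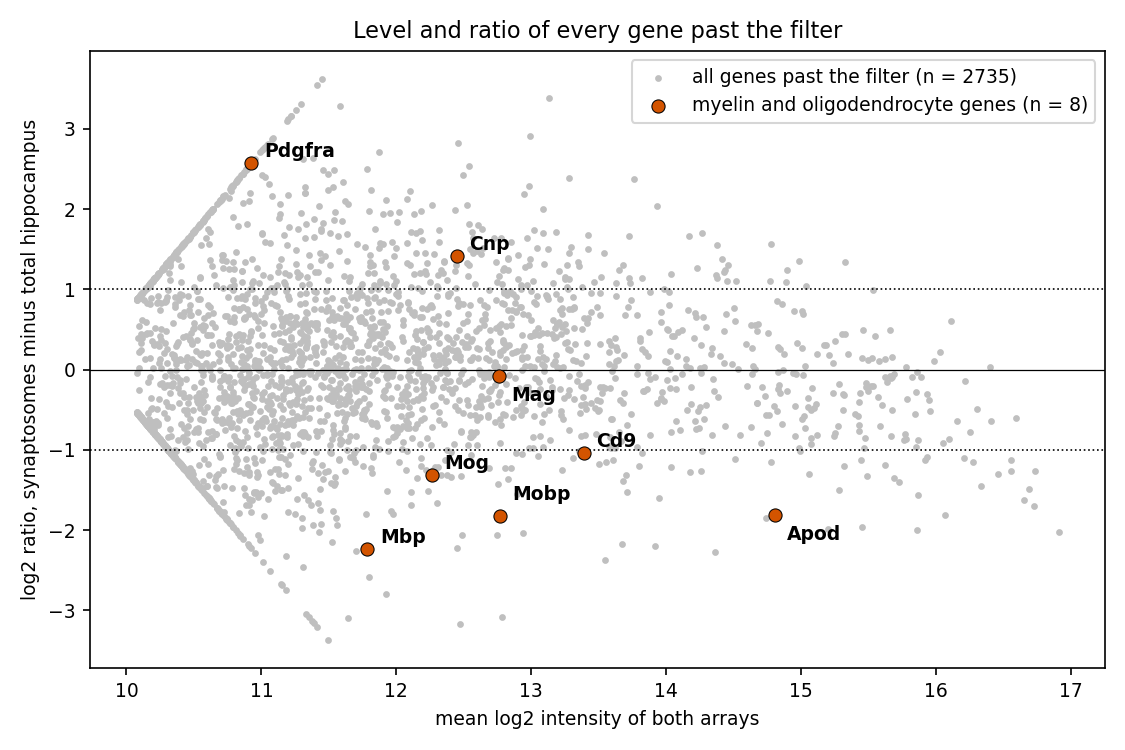
Log2 ratio of synaptosomes to total hippocampus (vertical axis) against mean log2 intensity of both arrays (horizontal axis) for the 2735 genes past the filter (grey) and the 8 myelin and oligodendrocyte genes (orange). Dotted lines mark 2-fold, and the slanted edges at the left are genes with 1 signal at the floor, Pdgfra among them.

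Raising the floor of each array to the size of its negative readings, a setting added after the values were seen, left ratios for 7 of the 8 genes. Mbp, Mobp, Mog, Apod and Cd9 were still at least 2-fold lower. At this setting 10.6% of the 985 genes with a ratio were lower by 2-fold or more and 9.85% higher by as much. No member was at least 2-fold higher there, since Cnp was at least 1.84-fold higher and Pdgfra had no ratio. The 5 lower genes were also at least 2-fold lower in each of the 10 other settings tried, as the plot of each gene's ratio under the alternatives shows. In those settings 7.91% to 19.5% of all genes with a value were lower by 2-fold or more.

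**Figure D3:**
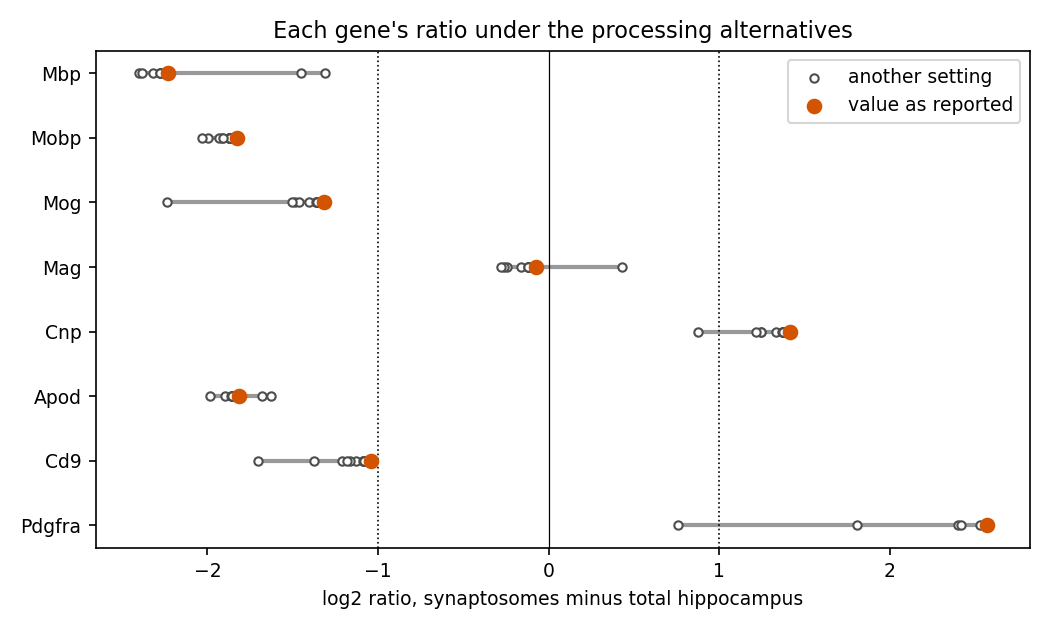
Log2 ratio of synaptosomes to total hippocampus (horizontal axis) of each of the 8 genes as reported (filled) and under each other setting that gave a value (open). Mbp, Mobp, Mog, Apod and Cd9 stay left of the dotted line at 2-fold lower, Mag stays around 0, and Cnp and Pdgfra stay above 0 but cross the line at 2-fold higher.

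The genes whose signals were most like those of Mbp and Mobp were found by the distance over the 2 log2 levels, 1 per array. Nearest to Mbp were Tra2b, a splicing factor, at a distance of 0.12, Ephx2, the soluble epoxide hydrolase, at 0.25 and Anpep, an aminopeptidase, at 0.31. Nearest to Mobp were Myh8, a muscle myosin, at 0.17, Eif2s1, a subunit of translation initiation factor 2, at 0.27 and Samd1 at 0.28. With 2 arrays such likeness is a description of 2 numbers.

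Other genes of the lineage had ratios nearer to 0. Of 49 further oligodendrocyte genes listed, 23 had a probe set and 14 passed the filter. Of these 14, 1 was lower and 1 higher by 2-fold or more, and 12 fell short of 2-fold. The median of their log2 ratios was -0.14. With each array's floor at its noise size, 7 of the 14 kept a ratio and 0 of them were 2-fold lower or higher. The lowest were Sirt2, a deacetylase, which read 749 in synaptosomes and 3573 in total hippocampus, both near the noise, and Cryab, a small heat shock protein, with a log2 ratio of -0.83. The highest were Aatk, a kinase, and Padi2, a peptidylarginine deiminase that acts on Mbp protein, with a log2 ratio of 0.52. Aatk read 5595 in synaptosomes and 2180, near the noise, in total hippocampus, which at the noise size is at least 1.19-fold higher. Car2, carbonic anhydrase II of oligodendrocytes, had log2 ratios of -0.78 and 0.01 with its 2 probe sets. The difference between the 2 sets of oligodendrocyte genes was not tested.

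Peripheral myelin genes gave 1 gene past the filter of 3 on the array. It was Pmp22, with a log2 ratio of 0.75 with the probe set used and -0.62 with the other, and with both readings of the first near the noise. The enzymes of sterol and fatty acid synthesis, which supply myelin lipids but are active in neurons and astrocytes too, had a median of 0.99 over 9 of 10 genes, those past the filter. Of these, 4 were higher by 2-fold or more and 0 were lower by as much. These counts rest on readings near the noise: at the noise size 3 of the 9 kept a ratio, and 0 were 2-fold higher. With the floor at percentile 75, a signal of 2798.5, 1 was 2-fold higher and the list median was 0.20, and with the filter at percentile 75, 2 were 2-fold higher. The highest genes were Scd, a fatty acid desaturase, which read 2058 in synaptosomes and 214 in total hippocampus, and Dhcr7, the last enzyme of cholesterol synthesis, which read 4797 in synaptosomes and 2116 in total hippocampus. Neither had a ratio at the noise size. Fasn, fatty acid synthase, and Fdps, a synthase of isoprenoid precursors, lay lowest at -0.86 and -0.38, and another probe set of Fasn had 0.36. Probe sets disagreed for Fdft1, squalene synthase, too, named after its values were seen: 1 had 0.15 and the other -2.53. Scd2, also named after its values were seen, gave the list median of 0.99, and its probe sets ran from -0.51 to 1.34. The count at least 2-fold lower was 1 with the floor at percentile 60, without centring and with the mean over probe sets.

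Axonal and nodal partners of myelin had a median of 0.69 over 13 of 14 genes, with 4 at least 2-fold higher and 0 lower. At the noise size 7 kept a ratio and 3 of them were 2-fold higher. Kcna1, the juxtaparanodal potassium channel of the study's title, read 16896 in synaptosomes and 3889, near the noise, in total hippocampus, which at the noise size is at least 3.60-fold higher. L1cam, an axonal adhesion molecule, read 5168 in synaptosomes and 1267 in total hippocampus and had no ratio at the noise size. The lowest were Cntnap1, the axonal partner at the paranode, with a log2 ratio of 0.09, and Scn8a, the nodal sodium channel, with one of -0.39. The total hippocampus readings of both were near the noise.

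**Figure D4:**
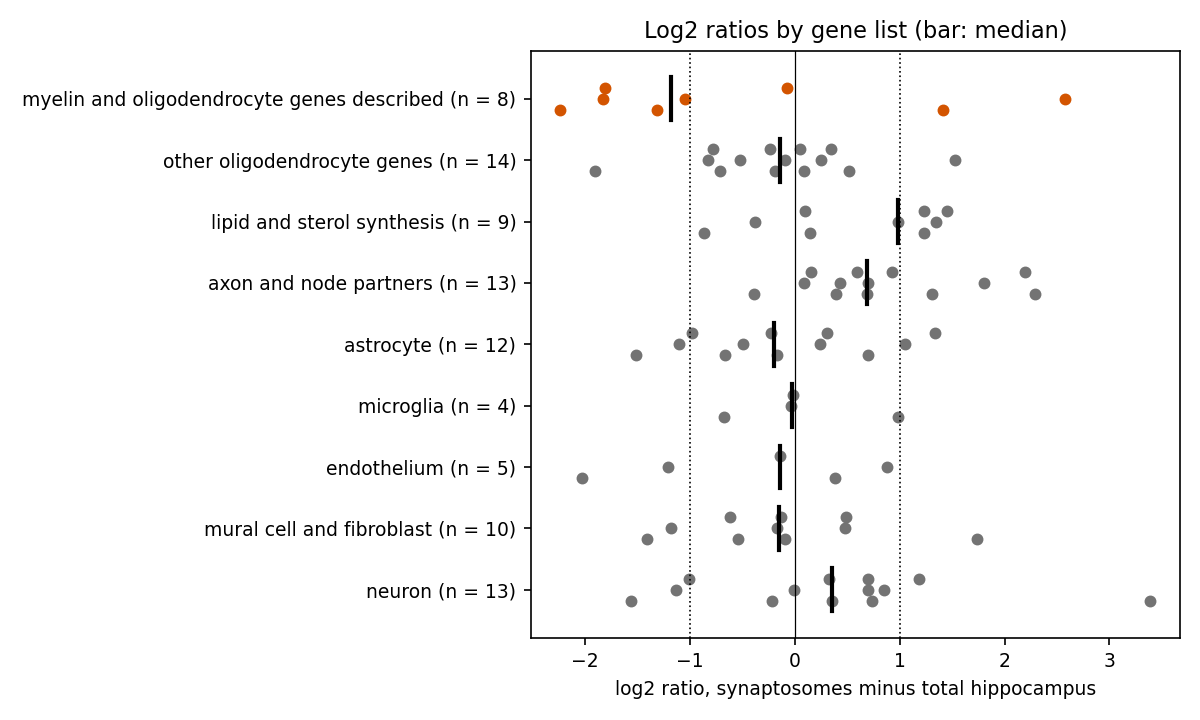
Log2 ratio of synaptosomes to total hippocampus (horizontal axis) of every gene past the filter in each list (points), with the list's median (bar) and dotted lines at 2-fold. The 8 myelin and oligodendrocyte genes have a median of -1.18 and spread from -2.23 to 2.57, while the 14 other oligodendrocyte genes have a median of -0.14.

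Markers of other cells that the tissue holds were measured beside these genes. Astrocyte markers had a median log2 ratio of -0.19 over 12 of 13 genes on the array, with 2 lower and 2 higher by 2-fold or more, and summed to 311965 in synaptosomes and 400881 in total hippocampus. S100b was 2.53-fold and Slc4a4 2.07-fold higher, and Mt3 was 2.15-fold lower, all with readings above the noise. Slc1a2, a glutamate transporter, lay lowest at -1.51 with both readings near the noise, and its other probe sets gave -0.77 and 1.24.

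Microglial markers had a median of -0.03 over 4 of 10 genes and summed to 66994 in synaptosomes and 72610 in total hippocampus. With the probe sets used all were within 2-fold: -0.68 for Ptprc, -0.03 for Ctss, -0.02 for Cd53 and 0.98 for Aif1. Another Aif1 probe set read 7546 in synaptosomes and 1267, near the noise, in total hippocampus, a log2 ratio of 2.74. With the mean over probe sets 1 microglial gene was 2-fold higher. Ptprc and Cd53 were near the noise on both arrays, and at the noise size 2 of the 4 kept a ratio. Endothelial markers had a median of -0.14 over 5 of 7 genes and summed to 9910 in synaptosomes and 17630 in total hippocampus. Flt1 was 2.31-fold lower, or at least 2.29-fold at the noise size, and Kdr read -315 in synaptosomes and 3891, near the noise, in total hippocampus. Slc2a1 and Pecam1 lay on the other side of 0 at 0.88 and 0.38, also with readings near the noise. Mural cell and fibroblast markers, the other possible source of Pdgfra RNA, had a median of -0.15 over 10 of 13 genes, with 2 lower and 1 higher by 2-fold or more. They summed to 45709 in synaptosomes and 53053 in total hippocampus. Their lowest were Vtn at -1.41 and Acta2 at -1.18 and their highest Igfbp2 at 1.74 and Igf2 at 0.49, each with at least 1 reading near the noise, and at the noise size 0 of the 2 genes with a ratio were 2-fold lower or higher.

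Neuronal markers had a median of 0.35 over 13 of 13 genes, with 2 higher and 3 lower by 2-fold or more. They summed to 230894 in synaptosomes and 275832 in total hippocampus. Some had readings near the noise on both arrays. At the noise size 10 kept a ratio, with 3 lower and 1 higher by 2-fold or more. Snap25, a vesicle fusion protein, was 2.96-fold lower and Gap43, a growth cone protein, 2.19-fold lower, with readings above the noise. Slc12a5, the potassium-chloride cotransporter, read 27432 in synaptosomes and 2946, near the noise, in total hippocampus, which at the noise size is at least 5.85-fold higher. Gad2, which makes GABA, had a log2 ratio of 1.18 with both readings near the noise. The part of any of these cell types in the ratios of the myelin genes was not tested.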

How the data were processed

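RNA from hippocampal synaptosomes and from total hippocampus was measured on 1 Affymetrix array each. Per the labels' protocols, RNA was purified on columns, copied by SMART cDNA synthesis with a T7 oligo(dT) primer and transcribed into biotin-labelled cRNA. The authors deposited linear intensity values as whole numbers for 8799 probe sets, 59 of them controls. How the arrays were scanned, background-corrected and scaled is not given in the sources used here.

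From these intensities, control probe sets were left out, signals were set to a floor at percentile 50 of all readings, log2 was taken and the median ratio of probe sets past the filter (mean level at or above percentile 50, 4370 probe sets) was subtracted. Symbols came from the platform annotation: 7006 probe sets had 1 symbol, 308 several and 1426 are unnamed here. For 6994 with 1 symbol the gene identifier was in RefSeq's GRCr8 table, which changed 0 symbols. With 1 array per group no test was made, and the number of arrays limits the precision. The scripts ran in Python 3.11.15 with pandas 2.3.3, NumPy 2.4.6, matplotlib 3.10.9 and statsmodels 0.14.6. They were tested on simulated data in which bright signals were changed by a known fold without noise. That test checks the arithmetic and does not cover folds of readings near the noise.

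The genes described, the lists and the settings were chosen with earlier results of these data known. Named genes are every probe set of the 9 genes, the 2 highest and 2 lowest genes past the filter in each other list, Car2, and the 3 genes nearest to Mbp and to Mobp. The alternatives were 2 higher floors, no centring, quantile normalization, loess correction, 3 other filters and 2 other ways to treat several probe sets. A floor per array at the size under which 95% of its negative readings lay was added after seeing the data, as were values without Pdgfra.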

Additional observations from a re-analysis of the deposited data

How the results depend on the processing

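Mbp, Mobp, Mog, Apod and Cd9 were at least 2-fold lower in synaptosomes in all 10 planned settings and in the added one with a floor at the size of negative readings, so 5 genes were lower in each. The median log2 ratio of the genes with a ratio ranged from -1.71 to -1.22 over these 11 settings. The mean of Mbp and Mobp minus that of the others ranged from -2.07 to -1.27 over the 10 planned ones, and was -1.47 without Pdgfra. This difference was not computed with the added floor, where Mbp had -1.31 and Mobp -1.83. With that floor the others had -1.81 for Apod, -1.32 for Mog, -1.04 for Cd9, -0.08 for Mag and 0.88 for Cnp. Mbp thus lay level with Mog and Mobp level with Apod, and the range of the difference leaves this setting out. The count at least 2-fold higher, 2 as reported, was 1 with the floor at percentile 75, with the filter at percentile 75 and with only those genes that exceeded the floor on both arrays, and 0 with the added floor. In each of the first 3 it was Pdgfra that dropped out: its log2 ratio was 0.76 with the floor at percentile 75, and it had no value with the next 2. Averaging over probe sets gave Mog a ratio of -2.24, and Mbp had -1.31 with the added floor. Mag was the one gene of the 8 that changed sign, at 0.43 with the mean over probe sets. Over all 2735 genes past the filter, 391 were at least 2-fold lower and 522 higher. These counts were 136 and 173 of 1719 genes with the floor at percentile 75 and 161 and 202 of 1400 with the filter at percentile 75. They were 254 and 291 of 2234 with only those that exceeded the floor on both arrays and 104 and 97 of 985 with the added floor. The share of genes at least 2-fold lower ran from 7.91% with the floor at percentile 75 to 19.5% without centring. Lower genes were 42.8% of those past 2-fold as reported and 56.9% without centring. No paired analysis was possible because each group has 1 array. Readings near the noise limit the folds of Mbp, Cnp and the Mog probe set L21995_s_at, and the folds of Pdgfra most.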
